A study of Mus musculus with 6 samples.

Results

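The promoters of mouse genes named Zfp and a number were examined for open chromatin in haploid mouse embryonic stem cells with and without Spen. A Zfp promoter peak was an autosomal ATAC-seq peak whose midpoint lay within 1 kb of a transcription start site (TSS) of a protein-coding gene with such a name in the GENCODE annotation for mm9, leaving out Zfp42. This held for 422 of the 46475 peaks in 2 lists, 225 in the list for HATX WT cells and 197 in that for Spen KO clone 3, and the WT list had 22753 peaks and the clone 3 list 23722. ATAC-seq reads open DNA through adapter insertion by the Tn5 transposase. Both lines come from mESCs of mixed genomic background grown in serum and LIF, both carry an Xist transgene on the X chromosome that doxycycline switches on, and the KO line, here a single clone, lacks most of Spen, a corepressor that binds Xist RNA. The 6 sample records give each line with no doxycycline or with 2 ug/ml for 48 hours. Each list combines 2 technical replicates and names only the line, so the doxycycline state behind it is unknown, and clone 2 was not analysed here. With 1 list per line no test between WT and KO was possible, a difference between the lists cannot be told apart from one between cultures, and the intervals below are 95% intervals that cover counting error only. The read depth is unknown.

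Most Zfp proteins bind DNA through tandem C2H2 zinc fingers, in which paired cysteines and histidines hold a zinc ion. Many also carry a KRAB domain, which recruits Trim28 (KAP1) and through it the H3K9 methyltransferase Setdb1, and a number of these proteins recognise retroviral or imprinted sequence in embryonic stem cells. Genes of the KRAB family arose by local duplication and often lie in clusters of related copies.

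The annotation held 332 autosomal genes of this name. Of these, 197 were clustered, with the 5′ end of another such gene within 200 kb, and 135 were isolated, where neighbours with other names were not counted. Clustered genes fell into 49 runs, and chromosome 7 alone carried 86 of the genes, 73 of them clustered. A C2H2 finger pattern was found in the translated transcripts of 318 genes and was not found in 14, among them Zfp36 (tristetraprolin), an mRNA decay factor with fingers of another type. The median number of fingers was 12 for clustered genes (interval 11 to 12) and 8 for isolated ones (6 to 9). A KRAB-like pattern was found in 147 genes, in 61.9% of clustered genes (54.98 to 68.4) and 18.5% of isolated ones (12.9 to 25.9), a difference of 43.4 percentage points (33.3 to 52.0). The pattern can miss a KRAB domain, so genes without it are not shown to lack one. It was not found in Zfp932, listed below with genes linked to repeats. Nor was it found in the chromosome 2 runs Zfp120 to Zfp937 and Zfp442 to Zfp345.

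The sequences at the centres of 6 peaks show how varied these promoters were, each as 300 bases of the mm9 plus strand with the match to any of 10 short promoter motifs, described below, in capitals. The first is the highest-ranked peak found in the WT list only, at Zfp563 (chr17:33226238-33226537), and the next pair are the highest-ranked found in the clone 3 list only, at Zfp661 (chr2:127410298-127410597) and Zfp382 (chr7:30906765-30907064).
Zfp563: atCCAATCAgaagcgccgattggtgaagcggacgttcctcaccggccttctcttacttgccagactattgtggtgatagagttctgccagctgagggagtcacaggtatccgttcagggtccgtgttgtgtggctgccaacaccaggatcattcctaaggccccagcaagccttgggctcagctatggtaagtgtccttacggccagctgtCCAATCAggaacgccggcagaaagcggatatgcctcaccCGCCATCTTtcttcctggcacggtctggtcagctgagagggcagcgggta
Zfp661: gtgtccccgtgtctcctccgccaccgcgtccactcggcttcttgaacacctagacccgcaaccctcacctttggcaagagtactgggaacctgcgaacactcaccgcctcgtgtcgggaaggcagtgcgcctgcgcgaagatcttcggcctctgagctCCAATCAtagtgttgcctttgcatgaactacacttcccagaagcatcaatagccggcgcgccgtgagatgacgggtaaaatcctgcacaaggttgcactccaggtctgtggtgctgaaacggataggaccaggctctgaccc
Zfp382: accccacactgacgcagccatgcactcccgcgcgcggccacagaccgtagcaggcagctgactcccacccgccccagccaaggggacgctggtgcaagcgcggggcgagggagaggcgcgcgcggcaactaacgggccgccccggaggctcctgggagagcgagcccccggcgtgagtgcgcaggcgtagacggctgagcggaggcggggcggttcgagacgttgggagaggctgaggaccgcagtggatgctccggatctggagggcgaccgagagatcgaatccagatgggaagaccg
The remaining 3 are the highest-ranked peak shared by both lists, at Zfp345 (chr2:150310837-150311136), and the neighbours Zfp960 (chr17:17200801-17201100) and Zfp97 (chr17:17258080-17258379), whose promoters have the longest match to each other.
Zfp345: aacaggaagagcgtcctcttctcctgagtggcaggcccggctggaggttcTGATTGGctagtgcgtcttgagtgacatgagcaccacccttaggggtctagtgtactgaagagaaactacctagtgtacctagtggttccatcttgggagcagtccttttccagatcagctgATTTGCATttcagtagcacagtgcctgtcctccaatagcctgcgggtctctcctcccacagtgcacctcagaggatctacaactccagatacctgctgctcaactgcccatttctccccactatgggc
Zfp960: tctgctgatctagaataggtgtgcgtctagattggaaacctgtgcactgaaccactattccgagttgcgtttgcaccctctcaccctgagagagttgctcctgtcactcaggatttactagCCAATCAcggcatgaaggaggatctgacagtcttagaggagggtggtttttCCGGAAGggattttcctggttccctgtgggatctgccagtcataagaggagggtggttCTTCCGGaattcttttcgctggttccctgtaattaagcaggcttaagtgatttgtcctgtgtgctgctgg
Zfp97: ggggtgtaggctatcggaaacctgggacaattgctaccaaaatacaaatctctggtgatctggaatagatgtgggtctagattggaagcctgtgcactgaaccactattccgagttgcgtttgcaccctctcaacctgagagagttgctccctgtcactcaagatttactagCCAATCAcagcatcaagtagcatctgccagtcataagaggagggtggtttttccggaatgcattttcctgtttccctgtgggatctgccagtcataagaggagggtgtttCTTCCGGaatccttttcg
The Zfp382 window was a CpG-rich stretch of 71% GC with 35 CpG dinucleotides and none of the motifs. The Zfp345 window had 53.3% GC and only 4 CpG dinucleotides, and carried a CCAAT box and an octamer. The Zfp563 window carried 2 CCAAT boxes and a YY1 motif.

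Zfp genes had a promoter peak more often than other coding genes. A peak was present in both lists for 182 genes, in the WT list only for 40, in the clone 3 list only for 12 and in neither for 98. Thus 29.5% of Zfp genes had none (24.9 to 34.6), against 50.7% of all autosomal coding genes, and the share was 21.6 points lower than in other coding genes (difference -21.6, interval -26.3 to -16.4). It was 29.4% for clustered genes and 29.6% for isolated ones (difference -0.19 points, -10.3 to 9.55), and 29.9% for genes with the KRAB-like pattern against 29.2% for those without it (difference 0.74, -8.97 to 10.7). Position in a cluster and the KRAB-like pattern thus went with similar shares of open promoters.

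Genes without a peak had CpG-poor starts. The observed to expected CpG ratio in the 500 bases around the most upstream TSS had a median of 0.352 (0.262 to 0.461) in the 98 genes without a peak, 0.708 (0.672 to 0.743) in those with a peak in both lists and 0.800 (0.741 to 0.842) in those with a peak in the WT list only. A ratio of at least 0.6, a usual mark of CpG islands, was found in 198 genes, of which 84.3% had a peak (78.6 to 88.7). Of the 134 genes with a lower ratio 50% had one (41.7 to 58.3), while among other coding genes the shares were 76.8% (75.98 to 77.6) and 20.8% (20.1 to 21.6). The share of genes with a peak was thus higher in Zfp genes by 7.55 points (1.78 to 12.02) at high ratios and by 29.2 points (20.8 to 37.6) at low ones. The ratio was taken at the most upstream TSS alone, while a peak at any coding TSS counted. A gene with a low ratio can thus be open at another start. At Zfp386 the TSS window had a ratio of 0.217 and the clone 3 promoter peak 0.782. Of the genes without a peak, 31 had a ratio of at least 0.6. The nearest peak edge of either list lay beyond 1 kb from every coding TSS of all 98, at a median of 17.2 kb, and Zfp53 was the closest at 1.91 kb. Repeated sequence, in which reads do not map uniquely and peaks can be missed, made up at least 50% of the TSS window in 14.3% of these genes (8.70 to 22.6) and in 9.34% (5.91 to 14.4) of those with a peak in both lists, and its part in the missing peaks was not tested.

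**Figure D1:**
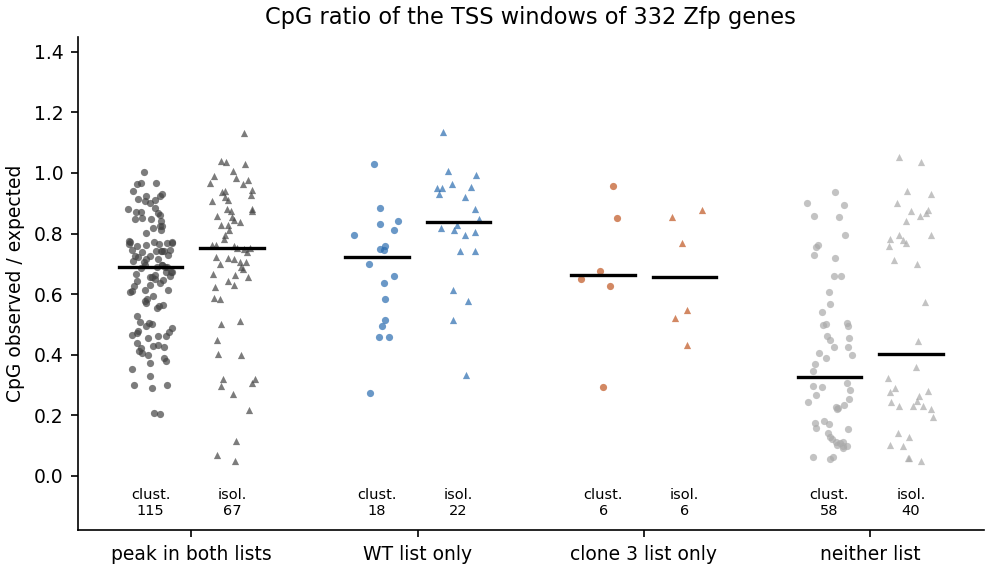
CpG observed to expected ratio (y axis) in the 500 bases around the most upstream coding TSS of each of 332 Zfp genes, by the lists in which the gene had a promoter peak (x axis) and split into clustered (circles) and isolated (triangles) genes, with the number of genes below. Horizontal bars are medians, and genes with a peak in neither list reach lowest, with an overall median of 0.352.

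Between WT and clone 3, most Zfp promoter peaks were shared. In each list 181 overlapped a peak of the other by at least 1 bp. The WT list had 44 WT-only peaks, 19.6% of its 225 (Wilson interval 14.9 to 25.2), and over all coding promoters the share was 20.7%. The clone 3 list had 16 clone 3-only peaks, 8.12% of its 197 (5.06 to 12.8), where all coding promoters gave 13.0%. Both shares moved with the peak threshold. At a stricter reproducibility threshold (IDR of at most 0.01 in both lists) the WT-only share was 27.1% and the clone 3-only share 3.45%. Among peaks at or above the median score of their list the shares were 7.36% and 0.78%. Set against the other coding promoters, the WT-only difference was -1.20 points (Newcombe interval -5.93 to 4.53), a share near that background. Its sign turned at the stricter IDR, with 1.31 points (-4.58 to 8.08), and at or above the median score, with 1.71 points (-1.45 to 6.81), and each of these intervals held 0. For clone 3-only peaks the difference was -4.99 points (-8.15 to -0.28). It was -3.90 points (-5.99 to 0.52) at the stricter IDR and -0.41 points (-1.14 to 3.11) at or above the median score, so that its interval then reached 0.

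The rank of a peak is given as its percentile among the autosomal peaks of its list by the mean of the authors' replicate values, whose scale is not named. The median percentile of Zfp promoter peaks was 68.1 (63.4 to 74.3) in WT and 64.3 (58.3 to 71.9) in clone 3, above the 61.1 and 58.2 of other coding promoters. No one-list Zfp peak lay in the top quartile of its list, 0 of 92 in WT (up to 4.01%) and 0 of 75 in clone 3 (up to 4.87%). In that quartile, 12 of 3043 other coding-promoter peaks were WT-only (0.39%) and 1 of 2640 was clone 3-only (0.038%). Such peaks were thus rare at all promoters. When the other coding promoters were weighted to the score quartiles of the Zfp peaks, 15.6% of them were WT-only and 9.87% clone 3-only, so that the difference was -1.75 points for clone 3-only and 3.94 points for WT-only, both given without an interval. By quartile of the WT list from the lowest up, 60.9%, 46.2%, 16.9% and 0% of the Zfp peaks were WT-only, against 61.2%, 30.8%, 12.2% and 0.39% of other promoters, and the second of these had 39 Zfp peaks (31.6 to 61.4 against 28.7 to 32.9). Promoters of the other C2H2 families Zbtb, Zscan, Zkscan and Klf gave 27.5% WT-only of 40 peaks (16.1 to 42.8) and 8.82% clone 3-only of 34 (3.05 to 23.0), with intervals that span the Zfp shares.

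Clustered and isolated genes were compared next. Of 135 WT peaks at clustered genes 15.6% were WT-only (10.4 to 22.6), and of 90 at isolated genes 25.6% (17.7 to 35.4), a difference of -10.0 points whose interval just reached 0 (-21.1 to 0.58). It was not seen among stronger peaks, with 0.72 points (-9.51 to 8.62) among peaks at or above the median score and 1.70 points (-11.5 to 13.96) when both lists were held to the stricter IDR, and it was -11.5 points (-22.8 to -0.61) when an overlap of at least 50% of both peaks was required. The WT peaks at clustered genes ranked somewhat higher (median percentile 69.9 against 64.8) and had less GC (58.4% against 61.7%), and the part of either was not tested. In the clone 3 list the shares were 7.32% of 123 peaks (3.90 to 13.3) and 9.46% of 74 (4.66 to 18.3), a difference of -2.14 points (-11.6 to 5.55).

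**Figure D2:**
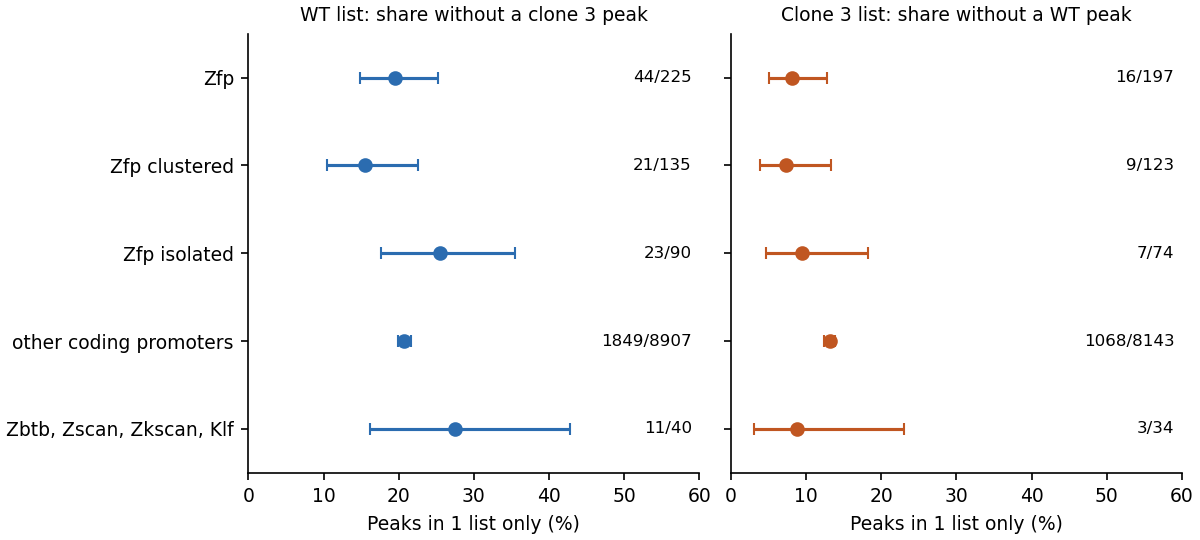
Share of promoter peaks found in 1 list only (x axis, percent), for the WT list (left) and the clone 3 list (right), in Zfp genes, their clustered and isolated subsets, other coding promoters and the families Zbtb, Zscan, Zkscan and Klf. Points are shares, bars are 95% Wilson intervals, and counts stand at the right; the Zfp share is 19.6% in WT and 8.12% in clone 3.

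The strongest WT-only peaks were of middling rank. Zfp563, in a chromosome 17 cluster, lay at percentiles 64.9 and 62.6 in the 2 WT replicates, and the nearest clone 3 peak was 55.6 kb away. Zfp395, an isolated gene on chromosome 14, lay at 65.6 and 58.8. Zfp9 on chromosome 6 lay at 53.0 and 68.8 and Zfp105 on chromosome 9 at 61.8 and 57.8. At these 4 genes both replicates lay above the middle of the WT list. Zfp707, Zfp148, Zfp568 and Zfp192 followed with list percentiles from 60.1 down to 57.2. Zfp148 encodes a Krüppel-type factor that binds GC-rich promoters, and Zfp568 encodes a KRAB protein that silences a placental transcript of Igf2, and each of these genes had 2 WT-only peaks. Over all 44 WT-only peaks the percentile ran from 0.15 to 64.5 with a median of 35.98, and 12 reached the median of the list.

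Clone 3-only peaks ranked lower still. Zfp661 on chromosome 2 lay at percentiles 41.8 and 65.0 in the clone 3 replicates and was the only one of 16 above the median of the list. Zfp382, a KRAB gene of a large chromosome 7 cluster, lay at 57.9 and 35.4. Zfp772, also on chromosome 7, lay at 29.0 and 55.1, and 81.3% of the 24-base sequences in its peak occurred at least 2 times in mm9. These peaks were thus found with unequal strength by their own replicates. Zfp786, Zfp84, Zfp219, Zfp64 and Zfp444 followed at list percentiles from 33.1 down to 12.7, and the median of the 16 was 12.3.

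A one-list peak did not always mean a promoter open in 1 line only. Of the 43 genes with a WT-only peak 4 still had a promoter peak in clone 3, and of the 17 with a clone 3-only peak 5 had one in WT. At Zfp609, a Nipbl and integrator partner, the WT-only peak (percentile 18.7) and the clone 3-only peak (0.44) lay 54 bp apart, and at the TSSs of Zfp668 and Zfp646 such a pair lay 558 bp apart. Counted by gene, 18.02% of the 222 Zfp genes open in WT had no clone 3 peak (13.5 to 23.6), against 18.7% of other coding genes, and 8.37% of all autosomal coding genes had a peak in WT only against 12.05% of the Zfp genes (8.97 to 15.99). Of the 194 Zfp genes with a clone 3 peak 6.19% had none in WT (3.57 to 10.5), against 10.8% of other coding genes (10.1 to 11.5), and clone 3 alone had a peak at 3.61% of Zfp genes (2.08 to 6.21) against 4.37% of all. Among the 40 genes with a peak in WT only, Zfp236 was counted although its WT peak (percentile 83.6) overlapped a clone 3 peak (84.2), because the midpoint of the latter lay beyond 1 kb from its TSSs. Of the 98 genes with the KRAB-like pattern and a WT peak 13.3% lacked a clone 3 peak (7.92 to 21.4), and of the 124 without the pattern 21.8% (15.4 to 29.8), with overlapping intervals.

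Shared Zfp peaks shifted in rank as other promoters did. The clone 3 percentile minus the WT percentile had a median of -2.83 over the 181 pairs (-5.19 to -1.38) and of -2.83 over 7075 pairs at other coding promoters (-3.21 to -2.55). All other shared peaks, with no coding TSS within 1 kb of the midpoint, had 2.96 (2.56 to 3.34). Percentiles are relative within a list, so that all shared autosomal peaks had a median of -0.098 and a shift of one class downward goes with a shift of others upward. Ranked among coding-promoter peaks alone, the Zfp median was -2.25 (-3.99 to -0.63), and other promoters were not computed this way. By autosomal percentile the Zfp shift was -3.16 (-5.38 to -1.10) at clustered genes and -2.41 (-7.28 to -0.46) at isolated ones. Both clone 3 replicates lay below both WT replicates at 58 pairs, 32.0% (25.7 to 39.2) against 29.4% of all shared coding promoters, and above both at 21 pairs, 11.6% (7.71 to 17.1) against 13.4%. Both shares were close to the background. Peak width followed, with a median change of -28 bp in clone 3 (-46 to -17) against -33 bp (-36 to -30) for other promoters.

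**Figure D3:**
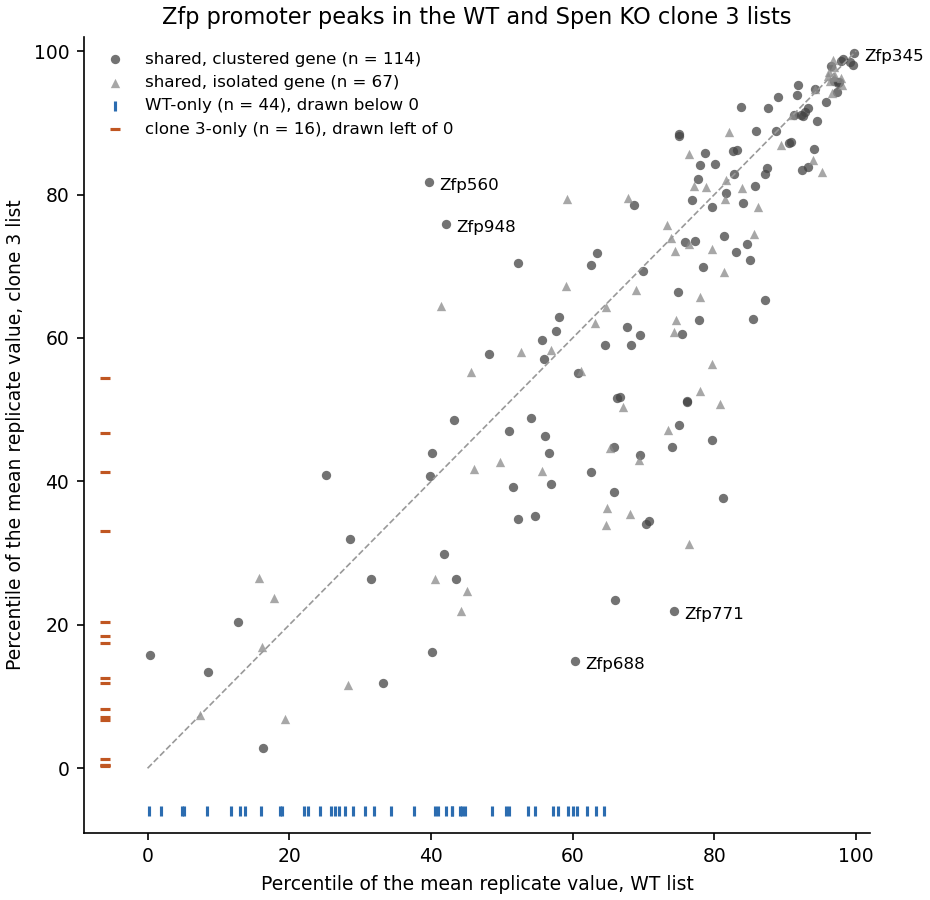
Percentile of each shared Zfp promoter peak in the WT list (x axis) and in the clone 3 list (y axis), at clustered (circles) and isolated (triangles) genes, with the dashed line marking equal rank. WT-only peaks are drawn as ticks below 0 and clone 3-only peaks as ticks left of 0, and most shared peaks above percentile 90 stay close to the line while those in the middle spread. Of all 181 pairs 116 lie below the line and 65 above it, and of 7256 pairs at all coding promoters 4570 lie below.

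The strongest shared peaks ranked high in both lists. Zfp345 lay at percentiles 99.7 and 99.6 in the WT replicates and at 99.7 and 99.7 in clone 3. Zfp120, like Zfp345 in a cluster on chromosome 2, lay at 99.7 and 99.2 in WT and at 98.9 and 96.4 in clone 3. Zfp574, Zfp112 and Zfp868 completed the 5 highest, with mean percentiles of 98.8, 98.5 and 98.2.

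Among pairs whose replicates did not overlap, the downward shift was largest at Zfp771 (chr7:134387450-134388401 in the WT list). It lay at percentiles 84.9 and 52.1 in WT and at 25.7 and 22.3 in clone 3, a shift of -52.4. Zfp688, in the same chromosome 7 run, went from 63.7 and 54.8 to 25.1 and 8.28. At both genes the WT and clone 3 values did not overlap, as the choice of pairs required. Zfp408 on chromosome 2 went from 75.3 and 76.7 to 48.2 and 19.95, and the chromosome 17 genes Zfp946 and Zfp213 had shifts of -43.5 and -42.5.

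Upward shifts were fewer and smaller. Zfp560 on chromosome 9 (chr9:20189346-20189922 in the WT list) lay at 34.7 and 47.5 in WT and at 67.1 and 89.1 in clone 3, a shift of 42.0. Zfp948 on chromosome 17 went from 53.9 and 29.5 to 79.3 and 70.1. Neither overlapped between the lists, as the choice of pairs required. Zfp945, Zfp330 and Zfp7 followed with shifts of 23.0, 20.3 and 18.2, of which Zfp330 encodes a nucleolar protein without the C2H2 pattern. Within each list the replicates of the Zfp peaks differed by a median of 8.496 percentile points in WT and 8.02 in clone 3, and the named shifts were chosen as the extremes of 181 pairs.

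The largest clusters held promoters of every state. The chromosome 13 run from Zfp712 to Zfp273 had 17 genes within 753 kb, of which 10 had a peak in both lists, Zfp595 in WT only and 6 in neither. The chromosome 7 run from Zfp84 to Zfp146 had 14 genes within 401 kb, with 8 open in both lists, Zfp27 and Zfp568 in WT only, Zfp84 and Zfp382 in clone 3 only, and Zfp940 and Zfp14 in neither. One-list promoters of both kinds thus lay among shared ones in a single run. The chromosome 7 run from Zfp180 to Zfp575 had 12 genes, 6 open in both lists, Zfp111 and Zfp109 in WT only, Zfp428 in clone 3 only and 3 in neither. The chromosome 17 run from Zfp677 to Zfp943 was the most uniform of the 4 largest, with 10 of 11 genes open in both lists and Zfp53 in neither. In contrast, chosen after its values were seen, the 8-gene run from Zfp871 to Zfp563 on chromosome 17 had only Zfp763 open in both lists, Zfp871, Zfp472 and Zfp563 in WT only and 4 genes in neither. Of the 49 runs, 13 held a gene open in WT only, 5 one open in clone 3 only, and 3 had no promoter peak at all.

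**Figure D4:**
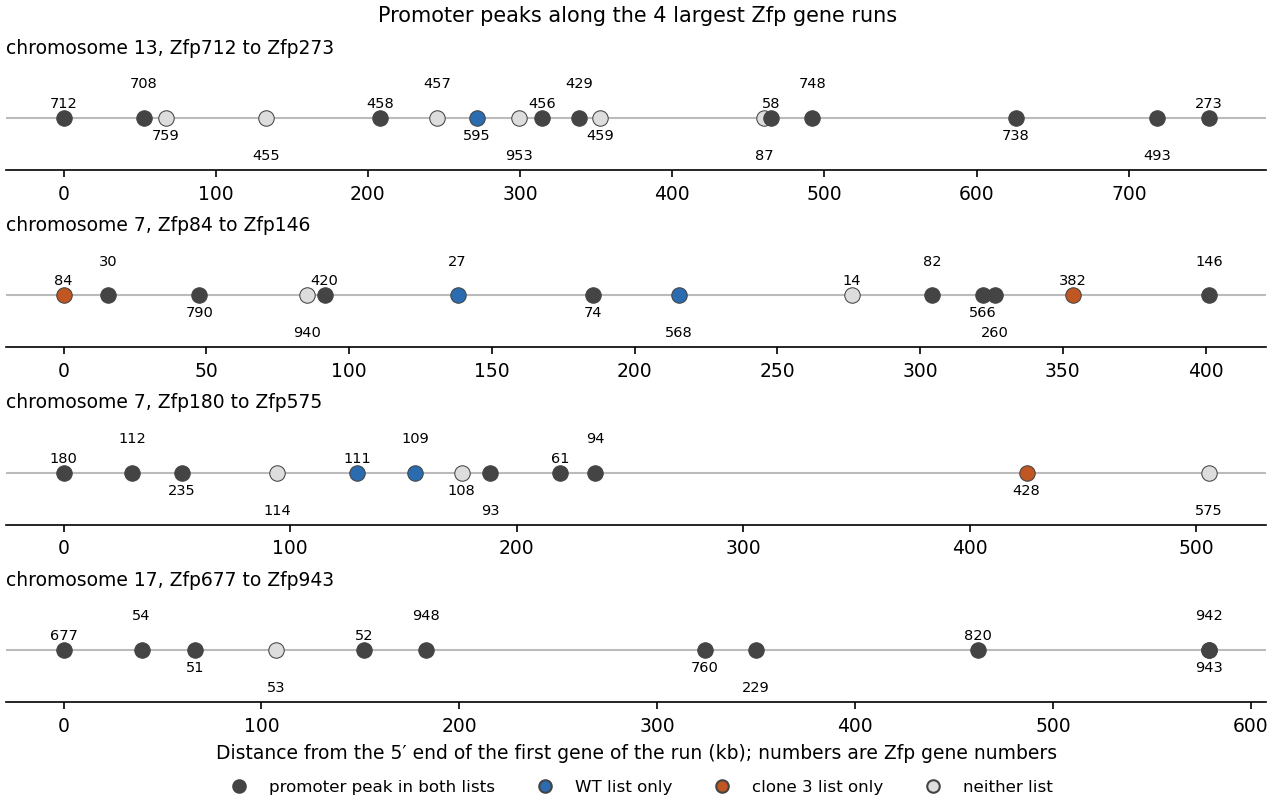
Genes of the 4 largest Zfp runs, placed by the distance of their 5′ end from that of the first gene (x axis, kb), with the number of each Zfp gene beside its point. Dark points have a promoter peak in both lists, blue in the WT list only, orange in the clone 3 list only and pale grey in neither; 34 of the 54 genes are dark.

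Some promoters of neighbouring genes were similar in sequence. The peaks of both lists merged into 241 promoter loci, and 22 of these matched another by at least 80% identity over at least 100 bp, 20 of 144 clustered loci (13.9%, 9.17 to 20.5) and 2 of 97 isolated ones (2.06%, 0.57 to 7.21). All 18 matching pairs lay within 1 Mb of each other. The longest match joined Zfp960 and Zfp97, whose loci were 57.2 kb apart and 94.7% identical over 721 bp, as their sequences above show in part. The divergent pair Zfp942 and Zfp943 matched Zfp758 and Zfp944 by 94.8% over 718 bp, and Zfp808 matched Zfp935 by 90.9% over 614 bp. All these loci had peaks in both lists, as did 19 of the 22 matching loci and 180 of all 241 loci. Zfp772, open in clone 3 only, matched Zfp954, open in both lists, and Zfp111 and Zfp109, both open in WT only, matched each other by 83.6% over 159 bp. Peaks with at least 50% repeated 24-base sequence made up 7.11% of the WT Zfp peaks (4.42 to 11.2) against 2.49% (2.19 to 2.84) of other coding promoters, and 8.12% (5.06 to 12.8) against 2.32% (2.02 to 2.67) in clone 3. None of the 44 WT-only peaks (up to 8.03%) and 1 of the 16 clone 3-only peaks (6.25%, 1.11 to 28.3) was of this kind. Shared Zfp peaks gave 8.84% (5.51 to 13.9) in WT and 8.29% (5.09 to 13.2) in clone 3, with overlapping intervals.

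Zfp promoter peaks were also poorer in GC and CpG than other coding promoters. The median GC content was 59.2% (58.3 to 61.1) against 63.4% (63.3 to 63.6) in WT, and the CpG ratio was 0.690 (0.666 to 0.715) against 0.767 (0.762 to 0.771). At clustered genes the ratio was 0.660 (0.610 to 0.690) and at isolated ones 0.764 (0.700 to 0.808), the latter similar to other promoters. The clone 3 list gave 0.698 for all Zfp peaks and 0.760 for other promoters. This held for promoters with a peak. Over all genes, the CpG ratio of the TSS window was 0.674 (0.643 to 0.717) in Zfp genes. In other coding genes it was lower, 0.603 (0.594 to 0.613), and the median GC was 57.4% in Zfp genes and 57.6% in others.

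The motif content differed as well. The 300 bases around each midpoint were searched on both strands for ETS (CCGGAAG), SP/KLF (GGGGCGGGG), NRF1 (GCGCATGCG), YY1 (AAGATGGCG), CRE (TGACGTCA), the CCAAT box (CCAATCA), the E-box (CACGTG), ZNF143 (ACTACAATT), the TATA box (TATAAA) and the octamer (ATGCAAAT). None of these lies inside another, though neighbouring matches can share bases. The SP/KLF motif, a GC box, was found in 11.6% of WT Zfp peaks (8.01 to 16.4) and 23.6% of other coding promoters, a difference of -12.03 points (-15.7 to -7.12), and in clone 3 the difference was -11.1 (-15.1 to -5.72). It was rarer at clustered than at isolated genes by 10.4 points in WT (difference -10.4, -20.1 to -1.71). The TATA box was found at 0 of 135 clustered and 7 of 90 isolated WT peaks (difference -7.78, -15.2 to -2.95), with -5.13 points (-13.3 to 0.49) in clone 3. The ETS motif was found in 25.8% of Zfp peaks (20.5 to 31.9) against 17.9%, a difference of 7.90 points (2.57 to 14.04) in WT and 8.21 (2.58 to 14.8) in clone 3. ZNF143, bound by the product of Zfp143 itself, was rare but more frequent in Zfp peaks, at 1.78% against 0.44% in WT (difference 1.34, 0.24 to 4.05) and 1.52% against 0.47% in clone 3 (1.06, 0.038 to 3.92). These were only 4 of 225 WT peaks and 3 of 197 clone 3 peaks, all at clustered genes. YY1, the CCAAT box and the octamer were higher in the WT list by 2.96, 4.75 and 2.25 points with intervals above 0, and in the clone 3 list by 2.05, 4.35 and 1.22 points with intervals that included 0. For the other 4 motifs the interval of the difference included 0 in both lists. A match is a run of letters and not a measured binding site, the intervals are not adjusted for the 10 motifs, and the GC content that differs between these sets was not adjusted for. In each list 181 Zfp peaks overlapped the other list, so the clone 3 motif, GC and CpG values largely repeat the same sequence. They are not an independent check. The intervals also count promoters of similar sequence as separate.

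**Figure D5:**
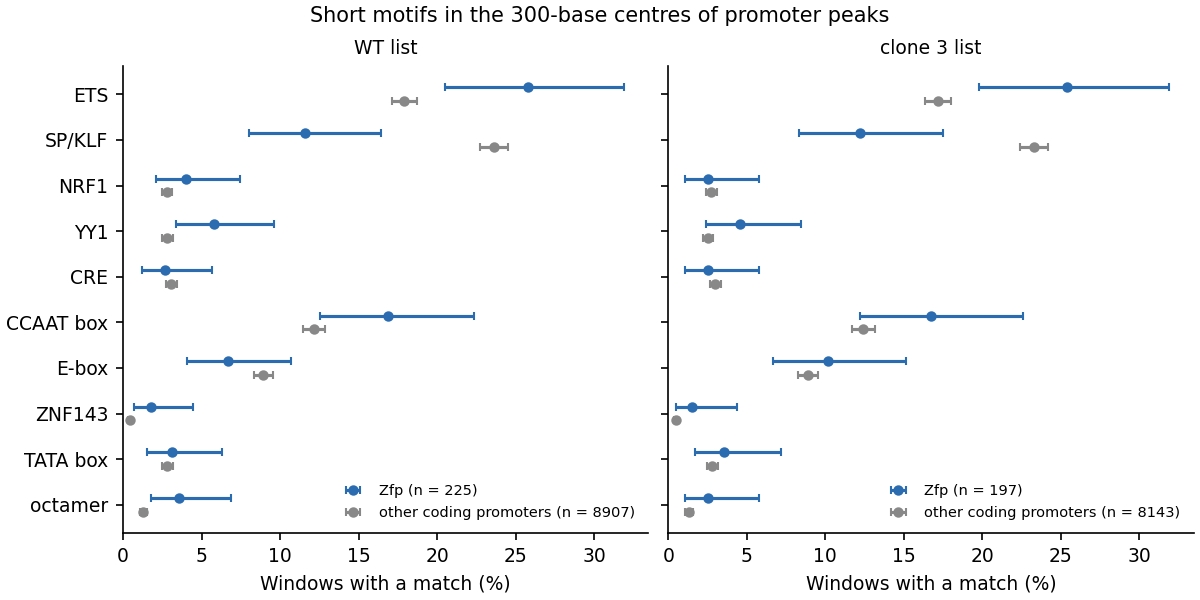
Share of promoter peaks with a match to each of 10 motifs in the central 300 bases (x axis, percent), for Zfp promoters (blue) and other coding promoters (grey) in the WT list (left) and the clone 3 list (right), with 95% Wilson intervals. The intervals are apart for the ETS and SP/KLF motifs in both lists.

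Genes of known role were read from 3 lists. Over all 332 Zfp genes, 54.8% had a peak in both lists, 12.05% in WT only, 3.61% in clone 3 only and 29.5% in neither (36.5%, 8.37%, 4.37% and 50.7% of all autosomal coding genes). Of 11 genes linked to repeats or imprints, 6 had a peak in both lists, Zfp568 in WT only and 4 in neither, which were Zfp445, a partner of Zfp57 at imprints, Zfp819, Zfp459 and Zfp352. Zfp57, which keeps imprints methylated, lay at percentiles 77.4 and 13.6 in the WT replicates and at 55.4 and 29.7 in clone 3, values that overlap. Zfp809, which silences proviruses in embryonic stem cells, lay at 59.03 and 55.3 in WT and at 32.2 and 79.8 in clone 3, overlapping too. Zfp932 was high in both lists, with list percentiles of 92.5 and 91.0, as did Zfp961 with 94.4 and 90.3, while Zfp600 had 67.8 and 79.6. Zfp708 had 2 shared promoter peaks, 1 at 84.6 in WT and 73.1 in clone 3 and 1 at 82.6 and 86.1.

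Of 9 genes linked to pluripotency, 6 had a peak in both lists. Zfp281 lay at list percentiles of 96.4 in WT and 95.8 in clone 3, and Zfp143 at 96.9 and 96.3. Zfp706 had 77.1 and 81.2, and Zfp462, a heterochromatin factor, had 19.4 and 6.89. Zfp609 and Zfp57 are given above, Zfp207 had a peak in WT only at 26.5, and Zfp296 and Zfp217 had none. Of 11 genes linked to differentiation, 1, Zfp521, had a peak in both lists (56.9 and 58.3). Zfp148, Zfp704, Zfp703 and Zfp36 had one in WT only, at 59.3, 32.0, 27.9 and 22.7, and the other 6, among them Zfp423 and Zfp503, had none. No gene of the 3 lists was open in clone 3 only, a state that was rare in all sets.

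Peaks inside the bodies of Zfp genes and more than 1 kb from any coding TSS numbered 57 in WT and 63 in clone 3. Of these 26.3% (16.6 to 39.0) and 31.7% (21.6 to 44.004) were found in 1 list, and 5 and 7 lay in a last exon, where the fingers of these genes are usually encoded. These shares were near the 26.02% and 28.4% of all autosomal peaks that were found in 1 list. The peak at Zfp58 in each list covered the annotated 5′ end of the gene, where no coding transcript starts.

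The limit of 1 kb cut few peaks. In WT 216 midpoints lay within 500 bp of a Zfp TSS and 9 between 500 and 1000 bp, and 4 more peaks lay between 1000 and 1500 bp. In clone 3 these numbers were 187, 10 and 4. The TSS of a coding gene with another name was also within 1 kb of 17 WT and 16 clone 3 peaks, and such a peak cannot be assigned to 1 gene.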

How the data were processed

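Per the labels, reads were processed with bcl2fastq, cutadapt, Bowtie2 (mm9), MACS2 and bedtools, with no versions given. The authors kept uniquely mapped, properly paired reads, called peaks on each technical replicate and deposited those passing an irreproducible discovery rate (IDR) of 0.05, each with its length and a value per replicate on a scale that the files do not name. These values were used as percentiles within a list.

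Members, gene lists, motifs and comparisons were chosen with earlier results of these data known. Sharing meant an overlap of at least 1 bp. TSSs, sequence and translated transcripts came from NCBIM37 (mm9) with GENCODE vM1. No protein table was used, and the KRAB-like pattern was widened after a first version missed the genes of a whole cluster. Records of 1 name (4 names have 2) were merged. Repeated sequence was counted as 24-base sequences present at least 2 times in mm9. Promoter loci were matched with BLAST 2.17.0 (e-value up to 1e-10). Named peaks were the 5 highest shared, the 5 largest shifts each way without replicate overlap, the 8 highest of each one-list set, the 3 largest clusters (the fourth and the 8-gene run were added after their values were seen), the listed genes and the 3 longest matches. The sequence of 1 further peak is not reported here. Shares carry Wilson intervals, differences Newcombe intervals and medians binomial intervals. The overlap, TSS lookup, intervals and repeat counts were tested on simulated data. Alternatives for overlap, IDR, score, list length, TSS set, gene names, cluster distance and replicates were computed. Calculations ran in Python 3.11.15 with scipy 1.17.1, pandas 2.3.3, numpy 2.4.6 and numba 0.67.0.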

Additional observations from a re-analysis of the deposited data

How the results depend on the processing

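Under 16 alternatives, 71 values were computed for 7 results, of which 65 stayed inside the interval of the reported value and none changed the sign of a difference whose interval left out 0. The exceptions came from thresholds on the peaks. With an IDR of at most 0.01 in both lists, the WT-only share of Zfp promoter peaks was 27.1%, the clone 3-only share 3.45% and the difference in the WT-only share between clustered and isolated genes 1.70 points. For peaks at or above the median score of their list these values were 7.36%, 0.78% and 0.72 points. The WT-only share thus moved up under the first and down under the second, and the cause was not tested. The lower clone 3-only share of Zfp peaks against other coding promoters was -4.35 points when a peak within 500 bp counted as shared (-7.38 to 0.27), -3.90 with the stricter IDR (-5.99 to 0.52), -0.41 at or above the median score (-1.14 to 3.11) and -4.77 points for peaks whose nearest coding TSS was that of a Zfp gene (-8.00 to 0.053, chosen after seeing the data), so its interval reached 0 under these 4. The clustered minus isolated difference in the WT-only share was -11.7 points with clusters of 500 kb (-23.7 to -0.76) and -6.55 points with 100 kb (-17.1 to 3.84). The median rank shift of shared Zfp peaks was -2.28 without replicate 1 and -2.16 without replicate 2 of each line. With percentiles among coding-promoter peaks it was -2.25 (-3.99 to -0.63). The weighting to score quartiles was also chosen after seeing the data. No paired analysis was possible because each list gives 1 set of peaks for a line and no test was run. Read depth is unknown, so a peak missing from a list may lie below its threshold.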
